A study of Zea mays with 74 samples.

Results

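Differentially methylated regions (DMRs) between landraces and modern maize are the stretches of the genome whose cytosine methylation separates farmers' open-pollinated varieties from the inbred lines of modern breeding. They numbered 374 of the 6389 DMRs deposited for the series (5.85%), and were chosen as every region of the deposited DMR table marked as coming from the landrace and maize contrast, whatever its sequence context. The table holds 2 further sets, 1043 teosinte vs. landrace DMRs and 4972 teosinte vs. modern maize DMRs.

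The populations behind the calls were 14 modern maize inbred lines (among them B73, Mo17, B97, CML322, Oh43 and Tx303), 17 Mexican landrace plants and 20 teosinte plants (Zea mays ssp. parviglumis, the wild progenitor of maize). All were assayed by whole-genome bisulfite sequencing (WGBS), in which unmethylated but not methylated cytosines are converted and so read differently. The landrace and teosinte libraries were made for the study from the third leaf of seedlings, whereas the methylomes of the inbred lines had been published before. The authors also propose lower sequencing depth as a possible reason for the slightly higher methylation they saw in the landraces. The landraces are outcrossed and the inbred lines are not. Population, breeding system, source of the libraries and sequencing depth therefore cannot be told apart in any landrace vs. modern maize DMR.

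Plant cytosine methylation occurs at CG, CHG and CHH sites, with H standing for A, C or T. In Arabidopsis, CG methylation is copied after replication by MET1, CHG methylation is kept by the chromomethylase CMT3 in a loop with histone H3 lysine 9 methylation, and CHH methylation is laid down anew by DRM2, guided by small RNAs, and by CMT2. In maize, CG and CHG methylation cover most of the transposon-rich genome, and CHH methylation is concentrated in short stretches that often flank genes.

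Each DMR was called between whole populations. The deposited table gives its position, context and comparison, with no methylation level per plant, no direction and no read depth, so neither the spread between plants nor the direction of the differences was analysed here. The regions are therefore the units counted below. Neighbouring regions are not independent, and each pair of comparisons shares the plants of 1 population. Intervals of shares are exact (95%, binomial) and take in counting error alone. Positions are those of the B73 AGPv4 assembly as deposited.

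The landrace vs. modern maize DMRs were almost all CG and CHG regions. CHG DMRs were the most frequent, with 188 of 374 (50.3%, 45.1 to 55.4%), followed by 171 CG DMRs (45.7%, 40.6 to 50.9%), and only 15 were in the CHH context (4.01%, 2.26 to 6.53%). The CHG regions covered 72.6 kb, the CG regions 53.4 kb and the CHH regions 1.73 kb. All 374 together covered 108.9 kb, or 0.00517% of the 2105.4 Mb that the 10 chromosomes span in the files, against 0.0149% for the teosinte vs. landrace DMRs and 0.0892% for the teosinte vs. modern maize DMRs.

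Context composition was the feature that was tested against the other comparisons, with 4 two-sided Fisher's exact tests adjusted together by Benjamini-Hochberg. The tests take regions as independent units, which they are not, and the compared lists share plants. Their p-values therefore do not measure the spread between plants or populations. The CHH share of 4.01% was far below the 21.2% of the teosinte vs. modern maize DMRs (1055 of 4972; odds ratio 0.155, adjusted p = 1.12e-19). It did not differ past the threshold from the 2.11% of the teosinte vs. landrace DMRs (22 of 1043; odds ratio 1.94, adjusted p = 0.0774). Among CG and CHG regions alone, CG made up 47.6% of the landrace vs. modern maize set (171 of 359), higher than the 39.4% of the teosinte vs. modern maize set (1545 of 3917; odds ratio 1.4, adjusted p = 0.00567). The same share was 42.2% in the teosinte vs. landrace set (431 of 1021; odds ratio 1.25, adjusted p = 0.0832), a difference that missed the threshold. With regions of at least 100 bp only, the CHH odds ratios were 0.0913 against teosinte vs. modern maize and 1.29 against teosinte vs. landrace.

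The regions were short. CHG DMRs had a median length of 298.5 bp (quartiles 199.5 and 479.8 bp) and CG DMRs one of 244 bp (165 and 407 bp), while CHH DMRs had a median of 94 bp (67.5 and 131.5 bp). In the teosinte vs. landrace set the medians were 332.5 bp for CHG, 260 bp for CG and 109.5 bp for CHH, and in the teosinte vs. modern maize set they were 458, 333 and 109 bp. Long regions were rare: 8 CHG DMRs (4.26%) and 2 CG DMRs (1.17%) reached 1 kb, against 14.1% of the CHG and 3.88% of the CG teosinte vs. modern maize DMRs. The lower limit of length depends on the number of cytosines that the authors required in a region, so the shortest regions cannot be compared with regions below that limit. Lengths were described and not tested.

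**Figure D1:**
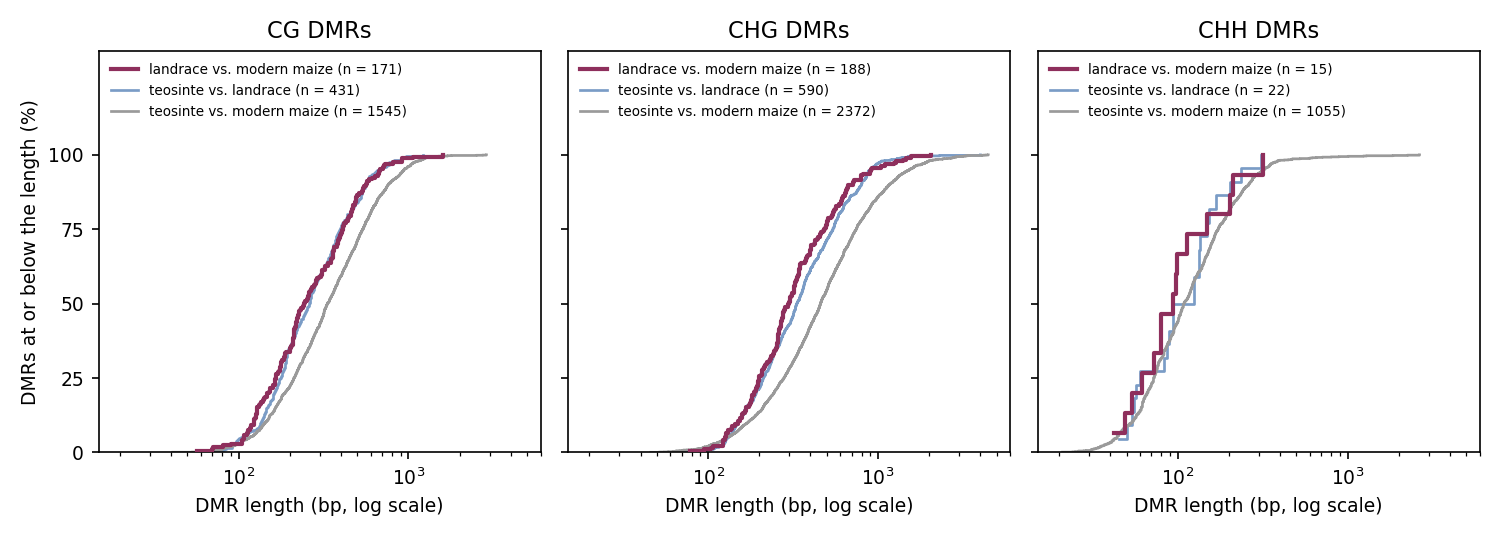
Cumulative share of DMRs (y axis, %) at or below each length (x axis, bp, log scale) for CG, CHG and CHH regions, with 1 line per comparison. The landrace vs. modern maize line reaches 50% at 244 bp for CG and 298.5 bp for CHG, left of the teosinte vs. modern maize line, which does so at 333 and 458 bp.

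The longest regions give an idea of the scale. The longest CHG DMR was chr8:180164866-180166907 (2041 bp), followed by chr5:166583114-166584688 (1574 bp) and chr3:88994996-88996460 (1464 bp). Each of these overlapped a CHG DMR of the teosinte vs. modern maize comparison. The CHG region chr8:180167259-180168653 (1394 bp) begins just beyond the end of the 2041 bp region and has exactly the bounds of a teosinte vs. modern maize CHG DMR. The longest CG DMR, chr2:5442678-5444276 (1598 bp), overlapped no CG DMR of either other comparison, whereas the next, chr10:149487724-149488790 (1066 bp) and chr8:47410986-47411908 (922 bp), each overlapped a teosinte vs. modern maize CG DMR. The longest CHH regions were chr8:167195192-167195509 (317 bp), chr4:8430987-8431200 (213 bp) and chr9:89371976-89372178 (202 bp). The shortest regions measured 57 bp in CG (chr8:102029329-102029386), 78 bp in CHG (chr2:8255727-8255805) and 42 bp in CHH (chr9:120343324-120343366).

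CG and CHG differences often fell in the same place. Counting overlapping regions once, the 374 DMRs formed 315 loci, of which 112 held a CG DMR alone, 129 a CHG DMR alone, 59 a CG and a CHG DMR together and 15 a CHH DMR alone. No CHH DMR overlapped a CG or CHG DMR, although the CHH region chr6:38595762-38595856 began 57 bp after the end of a CHG DMR (chr6:38595279-38595705). Only 3 CHH DMRs had a CG or CHG DMR of the same set within 100 kb, and the median distance to the nearest was 1.11 Mb.

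The 59 paired regions were close to congruent at their core and variable at their edges. The median overlap was 278 bp, which was 98.7% of the CG region and 86.5% of the CHG region. The CG region lay whole within the CHG region in 21 pairs, the CHG region within the CG region in 10, and the partners were staggered in 28. The CHG partner was the longer in 39 pairs and the CG partner in 19, with equal lengths in 1 pair. Both ends lay within 20 bp of each other in 12 pairs. The closest fit was on chromosome 1, where a CG DMR of 335 bp (chr1:209390-209725) and a CHG DMR of 333 bp (chr1:209391-209724) differed by 1 bp at each end. The loosest was on chromosome 8, where a CG DMR of 159 bp (chr8:101994945-101995104) sat inside a CHG DMR of 1104 bp (chr8:101994399-101995503).

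Paired regions were also longer than lone ones, with medians of 335 against 215.5 bp for CG and 378 against 262 bp for CHG. Of the landrace vs. modern maize CG DMRs, 34.5% (59 of 171) overlapped a CHG DMR of the same comparison, while this share was 45.2% in the teosinte vs. landrace set (195 of 431) and 49.8% in the teosinte vs. modern maize set (769 of 1545). In the opposite direction the shares were alike, with 31.4% of the landrace vs. modern maize CHG DMRs overlapping a CG DMR, 32.7% of those between teosinte and landrace and 32.1% of those between teosinte and modern maize. These shares were not tested, and the sets differ in the number and length of their regions.

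**Figure D2:**
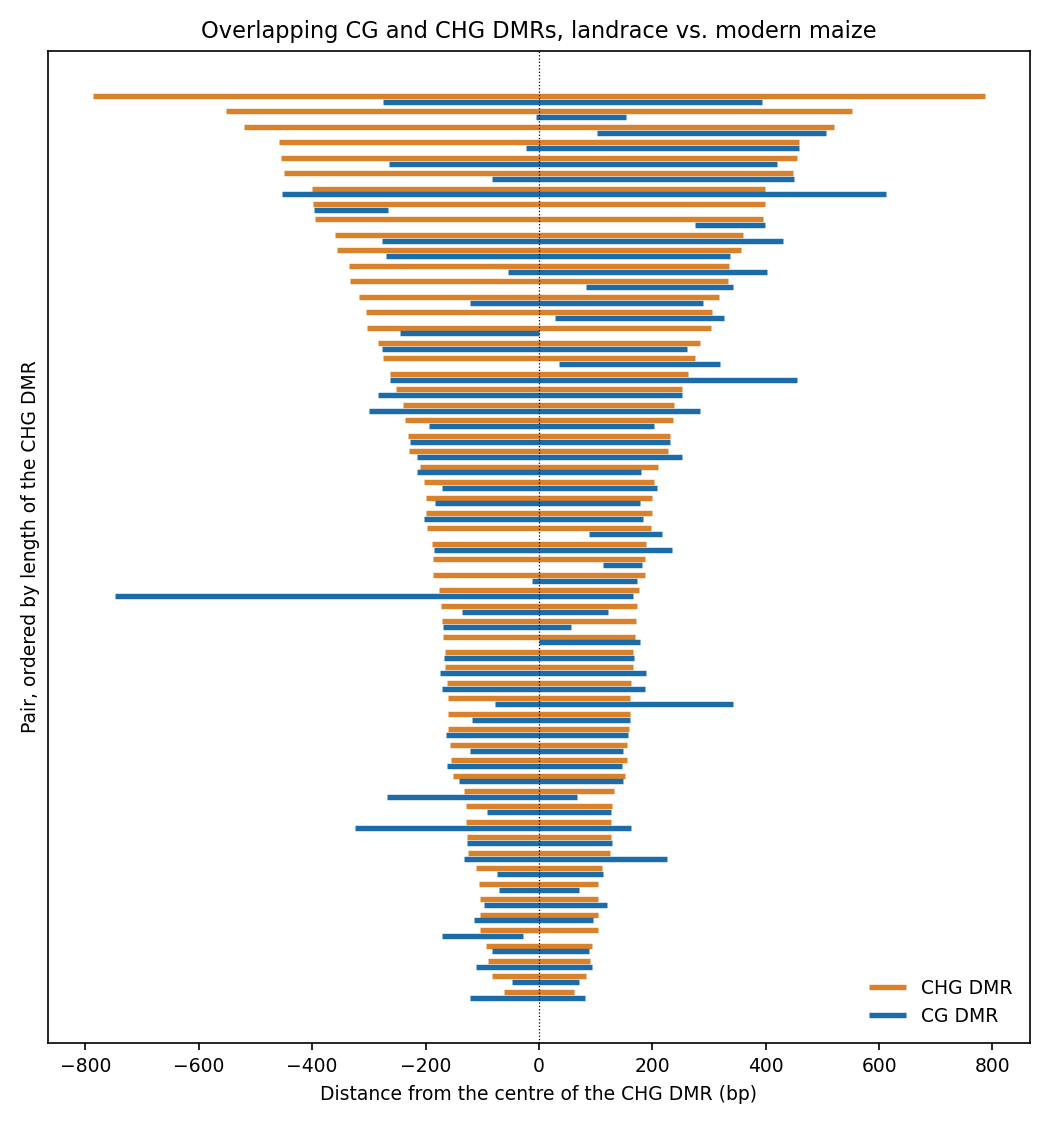
The 59 overlapping pairs of landrace vs. modern maize CG (blue) and CHG (orange) DMRs, 1 pair per row ordered by the length of the CHG DMR, drawn as distance in bp from the centre of the CHG DMR (x axis). Most blue bars lie within or close to the orange bar, and the CG region reaches past a CHG edge in the 28 staggered pairs and in the 10 that hold the whole CHG region.

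The regions were spread over all 10 chromosomes at unequal density. Chromosome 2 held the most, with 59 DMRs (24.2 per 100 Mb), followed by chromosome 4 with 53 (21.5 per 100 Mb) and chromosome 1, the longest, with 43 (14.0 per 100 Mb). Chromosome 7 held the fewest, with 18 (9.87 per 100 Mb). The genome-wide density was 17.8 per 100 Mb, and chromosomes 2, 4, 6, 8 and 10 lay above it, with 24.2, 21.5, 21.8, 21.5 and 22.5 per 100 Mb. Chromosomes 1, 3, 5, 7 and 9 lay below, at 14.0, 13.2, 13.9, 9.87 and 17.5 per 100 Mb. Counted as loci, chromosome 2 still stood highest with 20.9 per 100 Mb (51 loci) and chromosome 7 lowest with 8.23 (15 loci).

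By context, chromosome 2 carried 34 CHG, 24 CG and 1 CHH DMRs, and chromosome 6 carried more CG (21) than CHG (15) regions. CHG outnumbered CG on 6 chromosomes, CG outnumbered CHG on 3, and both had 13 on chromosome 9. CHH DMRs occurred on 8 chromosomes, with 3 on chromosome 8 and none on chromosomes 3 and 7.

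The other comparisons were spread differently. Chromosome 2 held 15.8% of the landrace vs. modern maize DMRs, 11.3% of the teosinte vs. landrace and 11% of the teosinte vs. modern maize DMRs. Chromosome 6 held 10.2%, against 6.52% and 7.08%, while chromosome 7 held 4.81%, against 9.78% and 8.25%. Chromosome 5 was low too, with 8.29% against 11.6% and 12%. For every 100 teosinte vs. modern maize DMRs there were 10.8 landrace vs. modern maize DMRs on chromosomes 2 and 6, and 4.39 on chromosome 7. Along the chromosome arms, 20.3% of the regions (76 of 374) lay in the outermost 10% of chromosome length at either end. Because 10% of length was counted at each end, an even spread along the chromosomes would give nearly the same share. The regions thus showed no clear excess at the ends. The share was 16.9% for the teosinte vs. landrace and 19.5% for the teosinte vs. modern maize DMRs. The longest stretch without a region was 46.9 Mb, on chromosome 3. The distribution over chromosomes was described and not tested.

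**Figure D3:**
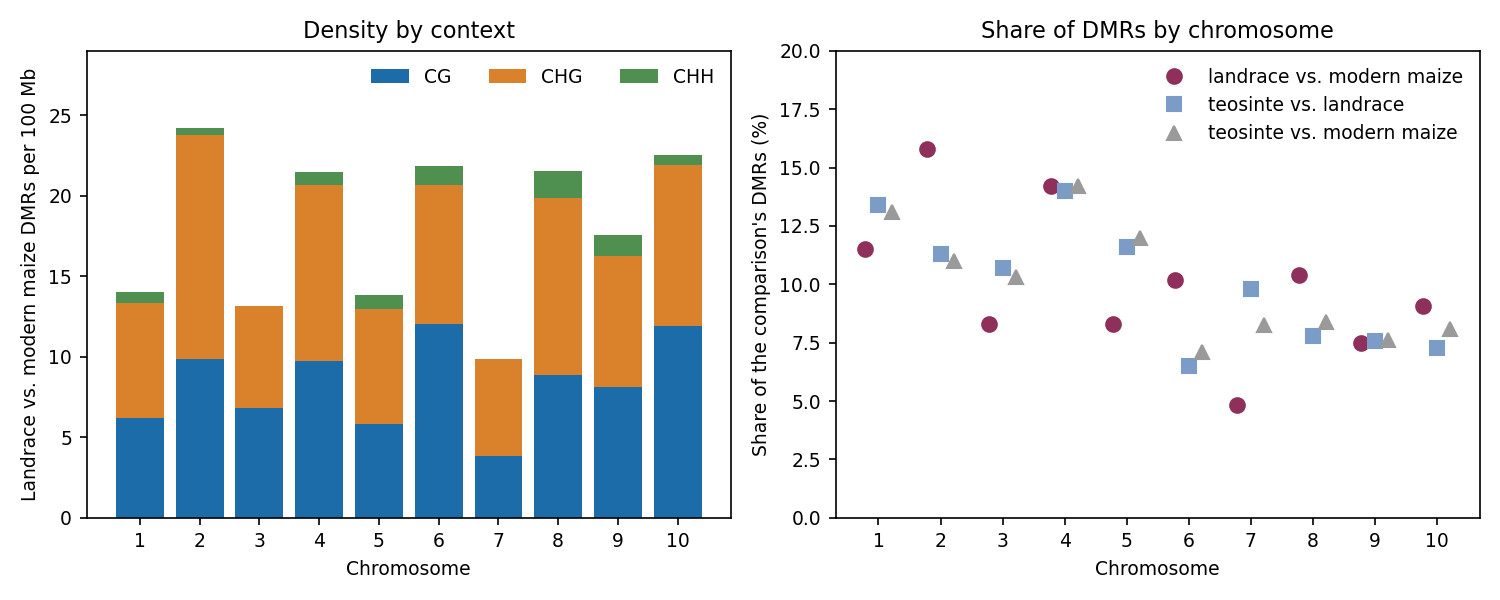
Left, landrace vs. modern maize DMRs per 100 Mb (y axis) on each of the 10 chromosomes (x axis), stacked by context. Right, the share (y axis, %) of each comparison's DMRs that each chromosome holds. Chromosome 2 is highest at 24.2 per 100 Mb and chromosome 7 lowest at 9.87, and the landrace vs. modern maize share departs from both others by more than 3 percentage points on chromosomes 2, 5, 6 and 7.

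Most regions stood alone. With regions no more than 10 kb apart taken as a group, 142 of 374 (38.0%) had a neighbour, compared with 49.4% of the teosinte vs. landrace and 51.8% of the teosinte vs. modern maize DMRs, which are also more numerous. Most of these neighbours were the overlapping CG and CHG pairs, which took up 118 of the 142 regions. Of 63 groups of 2 regions, 54 were such a pair and 9 were regions apart. When overlapping regions were merged first, 29 of 315 loci (9.21%) had a neighbour within 10 kb, against 18.4% and 30.2% for the teosinte vs. landrace and the teosinte vs. modern maize loci. The median gap between neighbouring loci of a chromosome was 3.94 Mb, against 1.2 Mb for teosinte vs. landrace and 0.23 Mb for teosinte vs. modern maize.

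Only 5 groups held more than 2 regions. The largest, of 4 regions, lay on chromosome 10 and consisted of a CG and CHG pair at chr10:67238772-67238976 and chr10:67238792-67238973 and a second pair at chr10:67245357-67245565 (CHG) and chr10:67245365-67245581 (CG). All of them overlapped teosinte vs. modern maize DMRs of their own context. The study's list of gene models pairs the overlapped CG DMRs with Zm00001d024367, in the gene body, and Zm00001d024368, in a flank. A group of 3 CHG regions lay at chr4:160310773-160311026, chr4:160311579-160311964 and chr4:160312990-160313145, and all 3 overlapped teosinte vs. modern maize CHG DMRs. The groups of 3 at chr2:48106911-48108578 and chr3:57176814-57178098 each held a lone CHG region beside a CG and CHG pair. On chromosome 2 all 3 regions overlapped teosinte vs. modern maize DMRs of their context, and on chromosome 3 both CHG regions did and the CG region did not. The last group of 3, at chr2:139515378-139519716, overlapped no same-context DMR of either other comparison.

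Over a wider span, the densest stretch was chr9:118856787-121216982, where 8 regions (7 loci, with 3 CG, 4 CHG and 1 CHH DMRs) followed each other at less than 1 Mb. In it, 6 regions lay in a landrace vs. modern maize sweep, 3 overlapped a same-context teosinte vs. modern maize DMR and 1 a teosinte vs. landrace DMR. Stretches of 6 regions were found at chr4:118840221-119744782 and chr8:98909163-99808270. All 6 on chromosome 8 overlapped a same-context teosinte vs. modern maize DMR, against 2 of the 6 on chromosome 4.

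Many landrace vs. modern maize DMRs recurred in the teosinte vs. modern maize comparison, and few in the teosinte vs. landrace comparison. A same-context teosinte vs. modern maize DMR overlapped 198 of the 374 regions (52.9%, 47.7 to 58.1%), and a same-context teosinte vs. landrace DMR overlapped 32 (8.56%, 5.93 to 11.9%). These comparisons share plants with the landrace vs. modern maize comparison, the modern maize lines in the first case and the landraces in the second, and their lists are 13.3 and 2.79 times as long. The overlaps are therefore a description and were not tested. Seen from the other lists, 4.0% of the teosinte vs. modern maize DMRs (199 of 4972) and 3.07% of the teosinte vs. landrace DMRs (32 of 1043) overlapped a landrace vs. modern maize DMR of their context.

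Split by context, 111 of 188 CHG regions (59.0%) overlapped a teosinte vs. modern maize CHG DMR, 83 of 171 CG regions (48.5%) a CG DMR, and 4 of 15 CHH regions (26.7%, 7.79 to 55.1%) a CHH DMR. For teosinte vs. landrace the counts were 15 CHG (7.98%), 15 CG (8.77%) and 2 CHH regions (13.3%). In bases, 59.0% of the CHG, 49.0% of the CG and 22.3% of the CHH sequence of the landrace vs. modern maize DMRs lay in a same-context teosinte vs. modern maize DMR, against 5.27, 8.52 and 8.05% in a teosinte vs. landrace DMR. Allowing any context raised the counts to 212 regions (56.7%) for teosinte vs. modern maize and 39 (10.4%) for teosinte vs. landrace. For teosinte vs. modern maize, this added 12 CG regions that overlapped a DMR of another context only and 2 CHG regions.

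Taken as exclusive classes, 193 regions (51.6%) overlapped only a teosinte vs. modern maize DMR of their context, 27 (7.22%) only a teosinte vs. landrace DMR, 5 (1.34%) both, and 149 (39.8%, 34.8 to 45.0%) neither. The class with neither held 77 CG (45.0%), 63 CHG (33.5%) and 9 CHH regions (60%). With any context allowed, 132 regions (35.3%) overlapped no DMR of the other comparisons. Loci with both contexts had the largest share with a teosinte vs. modern maize DMR: 42 of 59 CG and CHG loci (71.2%) overlapped a teosinte vs. modern maize DMR, compared with 71 of 129 CHG loci (55.0%), 46 of 112 CG loci (41.1%) and 4 of 15 CHH loci (26.7%). In 35 of the 59 loci both partners did so, in 5 the CHG partner alone and in 2 the CG partner alone. A locus was counted once any of its regions overlapped, so a locus with both contexts had more chances to be counted than a lone region. Paired regions were also the longer ones. The part of number and length of regions in these shares was not tested. Among CG regions, 57.0% of those at or above the median length and 40.0% of the shorter ones overlapped a teosinte vs. modern maize CG DMR, and among CHG regions 62.8% and 55.3%.

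**Figure D4:**
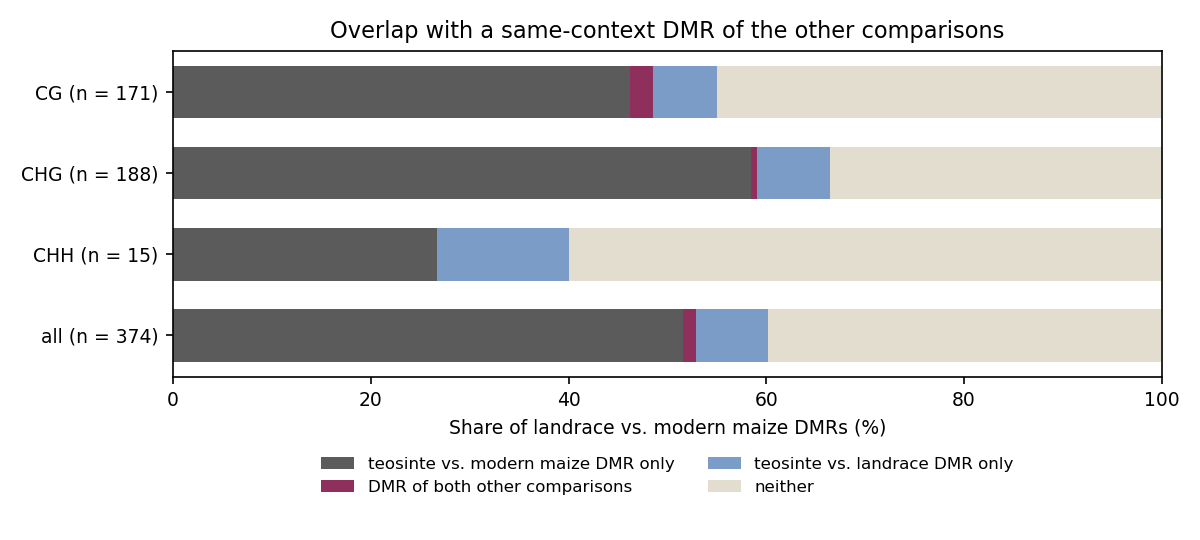
Share of landrace vs. modern maize DMRs (x axis, %) of each context (rows) that overlapped a same-context DMR of the teosinte vs. modern maize comparison only, of both other comparisons, of the teosinte vs. landrace comparison only, or of neither. The class with neither makes up 45.0% of CG, 33.5% of CHG and 60% of CHH regions.

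By chromosome, the share of regions with a same-context teosinte vs. modern maize DMR ran between 42.1% on chromosome 6 (16 of 38) and 77.4% on chromosome 3 (24 of 31). Chromosome 2, the richest in landrace vs. modern maize DMRs, had 25 of 59 (42.4%). Its 30 regions in the class with neither (50.8%) were second in share to the 20 of 38 on chromosome 6 (52.6%).

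Landrace vs. modern maize DMRs that met a CG or CHG DMR of the teosinte vs. modern maize comparison were usually the smaller. In most overlaps they lay inside the other DMR or shared both of its bounds. Of 114 overlaps with teosinte vs. modern maize CHG DMRs, 78 had the landrace vs. modern maize region whole within the other, 13 of these with identical bounds. The medians were 332.5 bp against 562 bp, and the teosinte vs. modern maize DMR was the longer in 82. Of 84 CG overlaps, 53 were whole within, 8 of these with identical bounds. The medians were 303.5 against 473 bp, and the teosinte vs. modern maize DMR was the longer in 61. In overlaps with teosinte vs. landrace DMRs, the landrace vs. modern maize region was usually not the smaller. The teosinte vs. landrace DMR was the longer in 3 of 15 CG, 5 of 15 CHG and 0 of 2 CHH overlaps. The landrace vs. modern maize region still lay whole within it in 8 of 15 CG, 11 of 15 CHG and 1 of 2 CHH overlaps. The teosinte vs. landrace DMR lay whole within the landrace vs. modern maize region in 11, 9 and 2, identical bounds counted in both. Identical bounds made up 6 of 15 CG, 6 of 15 CHG and 1 of 2 CHH overlaps. Examples are the CG region chr4:177772705-177773125 (420 bp) and the CHG region chr4:177772701-177773079 (378 bp), which formed a pair and each had the exact bounds of a teosinte vs. landrace DMR of its context. The CHH region chr6:38595762-38595856 (94 bp) likewise shared both bounds with a teosinte vs. landrace CHH DMR. Regions without a counterpart mostly had none close by. Of the 88 CG and 77 CHG regions with no same-context teosinte vs. modern maize DMR, 2 and 3 had one within 1 kb. The median distances were 384 and 401 kb. Such distances also depend on how many teosinte vs. modern maize DMRs there are, and they were not set against a background.

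A same-context DMR of both other comparisons overlapped 5 regions by at least 1 bp, and 4 of them were CG. These were chr1:170397818-170398457 (639 bp), chr9:17847851-17848348 (497 bp), chr2:166116092-166116400 (308 bp) and chr7:155447763-155447948 (185 bp). The fifth was the CHG region chr1:23270723-23271520 (797 bp), which overlapped 3 teosinte vs. modern maize CHG DMRs, of which it held 1 whole, and met a teosinte vs. landrace CHG DMR by 18 bp (2.26% of its length). The region on chromosome 7 likewise met its teosinte vs. landrace DMR by 37 bp only (20% of its length). The 3 regions on chromosomes 2 and 7 and at chr1:23270723 lay in landrace vs. modern maize sweeps, with XP-CLR scores of 75.7, 78.5 and 87.5. When an overlap had to cover at least 50% of the region in both comparisons, 3 of the 5 regions were left, those at chr1:170397818, chr9:17847851 and chr2:166116092, and 1 of these, on chromosome 2, lay in such a sweep.

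The 15 CHH regions can be given in full. Those that overlapped a teosinte vs. modern maize CHH DMR were chr4:8430987-8431200, chr8:70846576-70846656, chr8:132362667-132362766 and chr10:123756591-123756705. Those that overlapped a teosinte vs. landrace CHH DMR were chr1:11740829-11740883 and chr6:38595762-38595856. The 9 in neither class were chr1:266865881-266865961, chr2:166562297-166562370, chr4:107786037-107786135, chr5:26716931-26717080, chr5:65679613-65679675, chr6:106004179-106004228, chr8:167195192-167195509, chr9:89371976-89372178 and chr9:120343324-120343366. Of the 15, 10 were shorter than 100 bp.

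Selective sweeps are stretches of the genome where allele frequencies differ strongly between populations in the way that recent selection leaves behind, and the authors scored them by XP-CLR, a cross-population composite likelihood score that is higher for a stronger difference. Of the 374 regions, 95 (25.4%, 21.1 to 30.1%) lay in 1 of the 1375 landrace vs. modern maize sweeps, which cover 325.3 Mb or 15.5% of the chromosomes. The same held for 22.6% of all 6389 DMRs of the series, a value inside the interval of the landrace vs. modern maize regions, so the share was near that of all DMRs. It was 24.2% for the teosinte vs. landrace and 22% for the teosinte vs. modern maize DMRs. By context, 42 of 171 CG (24.6%), 49 of 188 CHG (26.1%) and 4 of 15 CHH regions (26.7%) lay in these sweeps. Counted as loci, 75 of 315 did (23.8%, 19.2 to 28.9%).

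The density of landrace vs. modern maize DMRs was 29.2 per 100 Mb inside their own sweeps and 15.7 per 100 Mb outside. An excess over sequence was not particular to them. These sweeps cover 15.5% of sequence and held 24.2% of the teosinte vs. landrace and 22% of the teosinte vs. modern maize DMRs. Densities and shares of sequence, here and by chromosome, count whole chromosome length, whether or not reads could be placed there uniquely. They are therefore not densities per sequence in which a DMR could be called. The share of regions in a sweep exceeded the share of sequence in sweeps on 8 chromosomes, with chromosome 1 at 34.9% of regions against 17.9% of sequence, and fell below it on chromosomes 5 (16.1% against 18.9%) and 6 (13.2% against 13.7%). Of the 95 regions, 40 lay in no sweep of another comparison, 42 also lay in a teosinte vs. modern maize sweep and 24 in a teosinte vs. landrace sweep, with 11 in sweeps of all 3 comparisons. Over all 374, teosinte vs. modern maize sweeps (15.8% of sequence) held 107 (28.6%) and teosinte vs. landrace sweeps (15.9% of sequence) held 83 (22.2%), and 179 regions lay in no sweep of any comparison. Among the 149 regions with no same-context DMR in the other comparisons, 47 (31.5%) lay in a landrace vs. modern maize sweep, and among the 193 that overlapped a teosinte vs. modern maize DMR only, 39 (20.2%) did. This difference was not tested.

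**Figure D5:**
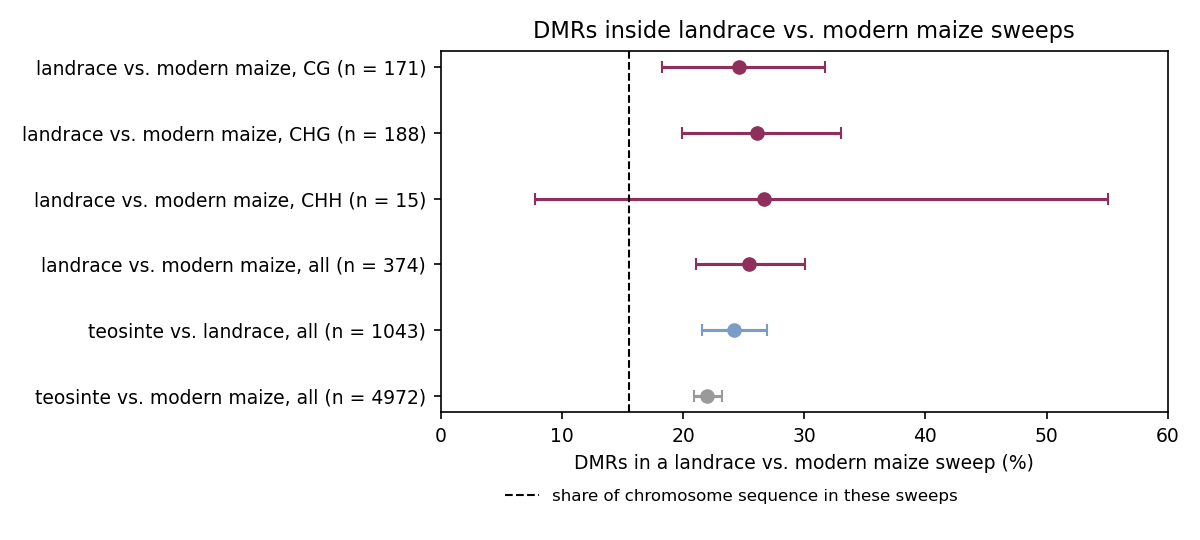
Share of DMRs (x axis, %) that lay in a landrace vs. modern maize sweep, with exact 95% binomial intervals, for the landrace vs. modern maize DMRs by context and together and for the DMRs of the other comparisons (rows). The dashed line marks the 15.5% of chromosome sequence in these sweeps, and the landrace vs. modern maize DMRs (25.4%) have an interval that takes in the 24.2 and 22% of the others.

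A region was found in 66 of the 1375 sweeps (4.80%). These were longer than the rest, with a median of 330.0 kb against 140.0 kb, and had a median XP-CLR score of 108.2 against 84.2. A longer sweep offers more sequence for a region to fall in, so a difference in length is partly built into this split. Neither difference was tested. Sweeps of 1 Mb or more numbered 40, and 13 of them held a region. The highest-scoring sweep with a region was chr1:168665001-169775000 (XP-CLR 234.8, rank 3 of 1375), which held the CHG region chr1:169226880-169226984 (104 bp). Next came chr1:134390001-136420000 (XP-CLR 206.3), with a CHG and CG pair at chr1:135668323-135669042 and chr1:135668406-135669113. The sweep chr6:48485001-51130000 (XP-CLR 185.5) held the CG regions chr6:50123068-50123257 and chr6:50973995-50974488.

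The sweep with the most regions, 4, was chr4:118605001-119640000 (XP-CLR 110.0). It held the CHG region chr4:118840221-118840414, the CG region chr4:118888895-118889046 and a pair at chr4:118997342-118997738 (CHG) and chr4:118997629-118997757 (CG), none of which overlapped a same-context teosinte vs. modern maize DMR. The CHG region chr4:118840221-118840414 overlapped a teosinte vs. landrace CHG DMR. Sweeps with 3 regions were chr4:110600001-112415000 (XP-CLR 143.7), chr4:115205001-115270000 (93.6), chr9:119230001-119380000 (77.3) and chr2:48100001-48225000 (75.4). All 12 regions in these 4 sweeps overlapped a teosinte vs. modern maize DMR of their context, and each sweep held 1 CG and CHG pair and 1 lone region.

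The landrace vs. modern maize sweep chr1:270480001-270580000 (XP-CLR 79.5, rank 811 of 1375) contains a teosinte vs. modern maize CG DMR of 534 bp (chr1:270512522-270513056), which the study relates to tb1, the gene for a TCP transcription factor that represses axillary branching. A teosinte vs. modern maize and a teosinte vs. landrace CHG DMR overlapped that CG region as well. No landrace vs. modern maize DMR lay in this sweep, and the nearest was the CHH region chr1:266865881-266865961, 3614 kb from it.

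Gene identifiers were available for regions that overlapped a teosinte vs. modern maize CG DMR on the study's gene lists, which pair such DMRs with genes by exon, by place in or beside the gene model, or by chromatin contact. Of 131 landrace vs. modern maize DMRs that overlapped a teosinte vs. modern maize CG DMR, 58 were paired in this way with 38 genes. Of these genes, 20 were reached by both a CG and a CHG region, 15 by CG regions only and 3 by CHG regions only. The genes have no names or functions in the sources used here, and a region outside these lists may still lie in a gene.

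By those lists, 8 genes carried the overlapped DMR in an exon and 12 in a bin of the gene body, 13 in all. Both contexts were found at Zm00001d043094 (CHG chr3:189131042-189131346 and CG chr3:189131053-189131342), Zm00001d049687 (CHG chr4:40262727-40263132 and CG chr4:40262759-40263137) and Zm00001d017279 (CHG chr5:191540319-191541110 and CG chr5:191540990-191541114), all on the exon list. A CG region alone was found at the exon-list genes Zm00001d015216 (chr5:79872008-79872358), Zm00001d019138 (chr7:18719965-18720209) and Zm00001d009618 (chr8:73468304-73468796). At Zm00001d037947 (CG, chr6:143128718-143128822) the region had the exact bounds of the teosinte vs. modern maize DMR, which 1 list places in an exon and another in a flank. Zm00001d046933 had a CHG region only (chr9:111695076-111695333). The gene-body list added Zm00001d020760 and Zm00001d047215 with both contexts, and Zm00001d008586 and Zm00001d010112 with CHG regions only, beside Zm00001d024367 of the group on chromosome 10.

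The study's list places the overlapped teosinte vs. modern maize DMR in a flank of the gene model for 22 genes, Zm00001d037947 among them. The landrace vs. modern maize region itself reached the listed flank interval at 20 of these and did not at Zm00001d017706 and Zm00001d021542. A further 4 genes were paired by chromatin contact. The contact genes were Zm00001d030976 (CG, chr1:170397818-170398457), Zm00001d053324 (CHG chr4:226181328-226181937 and CG chr4:226181660-226181959), Zm00001d014422 (CG, chr5:45878985-45879426) and Zm00001d024489 (CHG chr10:44089257-44090166 and CG chr10:44089447-44090131). The region paired with Zm00001d030976 was 1 of the 5 with a same-context DMR in all 3 comparisons. No region was on the list of flowering time genes. Of the 58 regions with a gene, 6 lay in a landrace vs. modern maize sweep, a lower share than the 25.4% of all 374 regions (95) and the 22.6% of all 6389 DMRs. Only regions that overlapped a teosinte vs. modern maize CG DMR could be paired with a gene. Among the 193 regions that overlapped a same-context teosinte vs. modern maize DMR only, the share was 20.2%. A CG and a CHG region at 1 gene count separately among the 58. These differences were not tested. The 6 regions were at 5 genes: Zm00001d028114, Zm00001d007294, Zm00001d035791, Zm00001d021542 and Zm00001d047116, each by a teosinte vs. modern maize DMR in a flank.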

How the data were processed

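Leaves of landrace and teosinte seedlings were assayed by WGS and WGBS, and published WGBS data of 14 inbred lines were added by the authors. Using Bowtie2, the authors placed WGBS reads on a B73 AGPv4 genome altered to hold each plant's SNPs, kept sites above a coverage minimum, extracted cytosines with Bismark and called DMRs between populations with metilene, with thresholds on cytosines per region, corrected p-value and, for CG and CHG, mean difference, so smaller shifts are missing. SNP calling used BWA, Picard and GATK 4, per the submitters' processing notes. The authors computed the XP-CLR score in sliding windows and kept merged outlier windows. Sweep starts were deposited 1-based. Whether DMR starts are 0- or 1-based is not stated there, and 0 was assumed.

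Regions, lists and tests were chosen with earlier results of these data known. Named regions were the longest and shortest per context, those in all comparisons, the largest groups, those in the top sweeps and those with gene IDs. An overlap was at least 1 bp. Chromosome ends were the largest positions in the files. Tables were made with Python 3.11.15, pandas 2.3.3 and scipy 1.17.1, tested on simulated regions and checked with bedtools 2.31.1. Gene IDs came from the study's lists for teosinte vs. modern maize CG DMRs. Sequences were not used here for lack of an AGPv4 genome.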

Additional observations from a re-analysis of the deposited data

How the results depend on the processing

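The context shares were recomputed with overlapping regions of the same context merged, regions under 100 bp left out and chromosome 2 left out, and the median lengths without regions under 100 bp. Merging within a context returned the same values in all 4 context tests, so it was no separate check. Overlapping CG and CHG regions were not merged there. Overlaps were recomputed with stricter or looser rules, neighbours with other distances or merged regions, and the sweep share with whole regions, merged regions, fewer sweeps and without chromosome 2. Densities, long sweeps and gene pairings had no alternative. Reading starts as 1-based left the overlap counts at 32 and 198 of 374, and requiring whole regions left 95 in sweeps. Of 30 alternative values, 26 kept their direction and side of the threshold or stayed inside the interval of the reported value. These 26 include the values that 1-based starts and whole regions left unchanged, and the 4 unchanged by merging. The exceptions were the median length of CHH DMRs, which was 202 bp over the 5 regions of at least 100 bp, the share of regions with a neighbour within 10 kb, which was 9.21% once overlapping regions were merged, the share in a landrace vs. modern maize sweep, which was 19.3% with only the 688 sweeps of higher XP-CLR score, which cover 11% of the sequence, and the count of regions with a same-context DMR of both other comparisons, which was 3 in place of 5 when at least 50% of the region had to be covered, an alternative chosen after seeing the data. No paired analysis was possible because the deposited regions were called between whole populations and carry no value per plant. The 15 CHH regions give wide intervals, and the depth behind each region is unknown.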
